A study of Mus musculus with 4 samples.

Results

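Cytochrome P450 genes of the Cyp2 family, 10 in number, were followed in mouse liver after depletion of the transcription factor Cux2: Cyp2a4, Cyp2a5, Cyp2a12, Cyp2d9, Cyp2d10, Cyp2d22, Cyp2d26, Cyp2e1, Cyp2j5 and Cyp2u1. They were listed by name, with earlier results of these data known, and were found on the arrays through the RefSeq accessions of their probes. All 10 had a usable probe, 15 probes in all, among 25116 genes tested. Of the 25116, 14092 had a gene symbol. The rest were entries without one, each counted as a gene in the shares of all genes. The livers came from 8-week-old female mice of CD-1, an outbred stock. Treated mice had been given Cux2 siRNA. They were killed after 5 days (5 mice, in pools of 3 and 2) or 8 days (4 mice, in pools of 2 and 2). Control mice had been given a non-specific siRNA, with no time of death in the labels. By the series design they were 13, in pools of 6 or 7, while the labels give 6 control mice for each array. Each of 4 Agilent 2-colour arrays set 1 treated pool against 1 control pool, 2 arrays per day. The treated pool carried Alexa 647 in replicate 1 of each day and Alexa 555 in replicate 2, so replicate number and dye orientation coincide. The control pools recur on both days, which ties the days to each other, and the labels do not say which control pool was on which array. RNA was pooled and came from whole liver, so a change in 1 mouse cannot be seen, and fewer cells of a type cannot be told apart from less RNA per cell.

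Cytochromes P450 are heme enzymes of the endoplasmic reticulum that add oxygen to lipids, steroids and foreign compounds with electrons passed on by P450 reductase (Por). The Cyp2 family is the largest in the mouse and much of it lies in clusters of near-identical copies. In rodent liver several members differ between the sexes through the timing of pituitary growth hormone, which acts by way of STAT5: Cyp2a4 is known as a female-predominant and Cyp2d9 as a male-predominant gene. Cux2 is a homeobox transcription factor made at much higher level in female than in male mouse liver. The question posed by the study was which genes change in female liver when Cux2 is depleted.

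How alike the copies are can be seen in the bases before their transcription starts. RefSeq promoters (build GRCm38.p6) were at hand for 8 of the 10 genes. The 250 bases before the start of Cyp2a5 (chr7:26835089-26835338, plus strand) and of Cyp2a4 (chr7:26306942-26307191, plus strand), both on chromosome 7, are given. The pair is shown because Cyp2a5 passed the test over both days and Cyp2a4 did not, which alone does not show that they differ. Capitals mark the bases that differ.
Cyp2a5: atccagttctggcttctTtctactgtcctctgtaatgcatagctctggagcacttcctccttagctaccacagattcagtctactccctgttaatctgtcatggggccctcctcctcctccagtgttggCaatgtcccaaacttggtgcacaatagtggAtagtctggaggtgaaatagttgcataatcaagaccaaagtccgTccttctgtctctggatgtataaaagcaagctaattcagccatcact
Cyp2a4: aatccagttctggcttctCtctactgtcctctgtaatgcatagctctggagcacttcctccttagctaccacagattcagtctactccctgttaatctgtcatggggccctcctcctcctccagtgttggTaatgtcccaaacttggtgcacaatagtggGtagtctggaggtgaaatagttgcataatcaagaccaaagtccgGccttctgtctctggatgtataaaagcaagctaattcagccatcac
Over 249 aligned bases 245 were the same (98.4%), and the 4 differences, with the Cyp2a5 base first and positions counted from 1 at the 5′ end of the Cyp2a5 stretch, were T18C, C130T, A160G and T204G. Cyp2a12, the third Cyp2a gene of the list, shared 63.4% of its aligned bases with Cyp2a5. The Cyp2d9 (chr15:82452127-82452376, plus strand) and Cyp2d10 (chr15:82407195-82407444, minus strand) promoters on chromosome 15 are shown because only the first holds the letters TTCCGGGC, known from work on the Cyp2d9 promoter and set in capitals.
Cyp2d9: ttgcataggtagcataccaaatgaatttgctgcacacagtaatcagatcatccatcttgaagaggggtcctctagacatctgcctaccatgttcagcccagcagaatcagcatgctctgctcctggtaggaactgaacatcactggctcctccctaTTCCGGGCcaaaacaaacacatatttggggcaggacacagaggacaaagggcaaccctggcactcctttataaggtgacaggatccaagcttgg
Cyp2d10: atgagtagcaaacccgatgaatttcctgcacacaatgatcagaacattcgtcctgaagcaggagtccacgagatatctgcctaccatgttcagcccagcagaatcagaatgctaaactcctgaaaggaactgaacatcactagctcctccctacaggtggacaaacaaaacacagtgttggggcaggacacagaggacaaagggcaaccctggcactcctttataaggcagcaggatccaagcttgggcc
This pair had 85.0% identity over 246 aligned bases. TTCCGGGC began 94 bases before the Cyp2d9 start, and on either strand it was in 1 of the 8 promoters of listed genes and in 1.1% of all 32851 promoters of the table over the same length. The STAT5 letters TTCNNNGAA were in 0 of the 8, against 7.02% of all promoters, and the letters bound by CUX proteins, ATCAAT and ATCGAT, in 0 of the 8 as well, against 6.72% and 0.728%. A missing match says only that these letters are not in these 250 bases.

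The knockdown was seen on all 4 arrays. The log2 ratio of Cux2 (Cux2 siRNA over non-specific siRNA) was -1.91 and -1.70 on the day 5 arrays, and the day 8 arrays gave -1.07 and -1.20. Cux2 fell by 1.47 over both days (SE 0.06, adjusted p = 0.000934, limma with Benjamini-Hochberg adjustment over all genes, as for every adjusted p given here), which left 36.1% of the control level. Its probe was dim, at 1.44 to 3.77 times the local background, so this size depends on how background is handled. The both-days ratio was -0.96 without background subtraction and -1.66 with the scanner's processed signals. Without day 8 replicate 2 the day 8 call of Cux2 was lost (adjusted p = 0.0662), and median centring ended both single-day calls (adjusted p = 0.129 for day 5 and 0.276 for day 8). In each channel 71.2% to 74.6% of probes exceeded background clearly. All 10 hepatocyte markers measured were well above background in all 8 channel readings. Of these, 5 (Alb, Apoa2, Serpina1c, Ass1 and Tat) were above 0 in replicate 1 and below 0 in replicate 2 of both days, which differ in dye orientation. Alb, which encodes albumin, differed by 1.57 between replicates 1 and 2, more than 99.6% of all genes, whose median absolute difference was 0.11. Among the listed genes this difference was largest for Cyp2d26 and Cyp2e1, as given below, and lay between -0.21 (Cyp2a12) and 0.28 (Cyp2d10) for the other 8. When the limma model also allowed for dye orientation, Cyp2e1 passed over both days (adjusted p = 0.00457, against 0.0669 as reported). Cyp2d26 did not pass (adjusted p = 0.161, against 0.532). In that fit 11255 of 25116 genes passed over both days, against 7796 as reported. What causes the difference between replicates was not tested.

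Of the 10 listed genes, Cyp2a5 rose and Cyp2u1 fell over both days, and the other 8 did not pass the test at an adjusted p under 0.05. Among all genes 14.8% rose and 16.3% fell over both days, so 1 of 10 in each direction is close to the background. At day 5 none of the 10 rose by limma (1 did at an unadjusted p under 0.05) and 1 fell, against 7.37% and 9.4% of all genes. At day 8 1 rose and 1 fell, against 6.27% and 8.02% of all genes. The median log2 ratio of the 10 was 0.06 over both days, beside 0.00 for all genes. None of the 10 passed for day 8 minus day 5, where 0% of all genes did by limma (622 of 25116 had an unadjusted p under 0.05). The smallest unadjusted p among the 10 was 0.136, that of Cyp2j5.

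**Figure D1:**
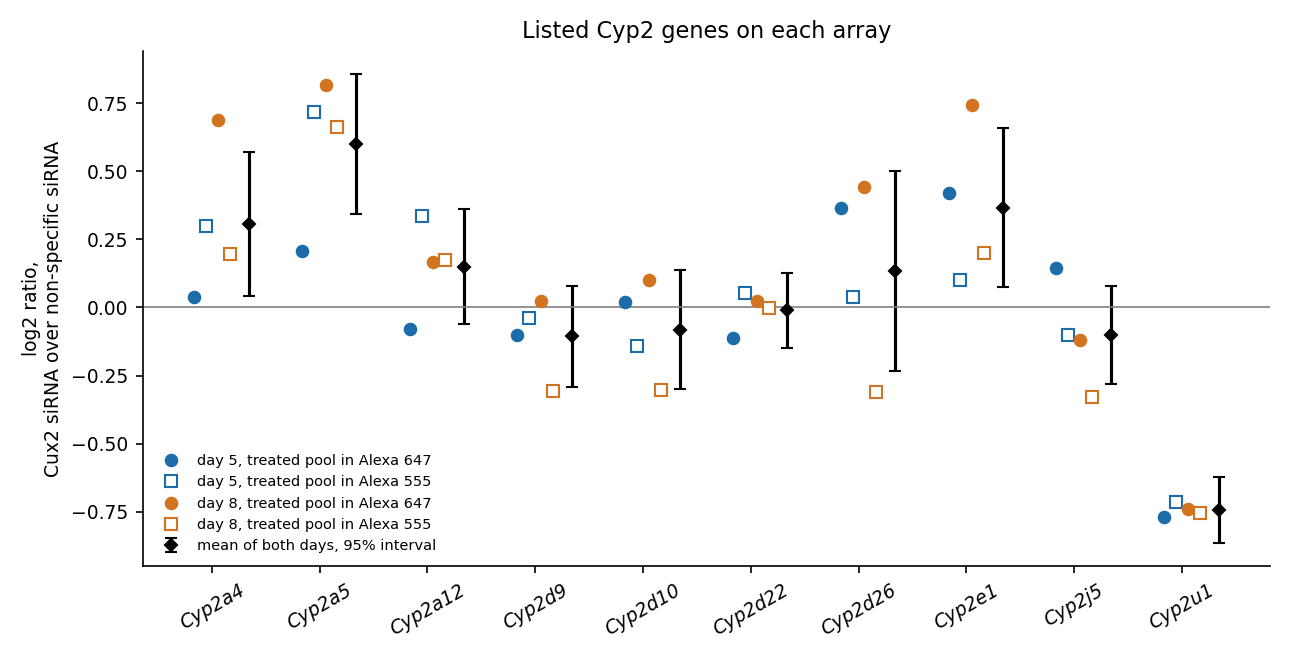
Log2 ratios (Cux2 siRNA over non-specific siRNA) of the 10 listed Cyp2 genes. Points are single arrays, coloured by day and shaped by the dye of the treated pool; diamonds are the means of both days with their 95% intervals. The 4 points of Cyp2a5 lie above 0 and the 4 of Cyp2u1 below it in a narrow band, while those of the Cyp2d genes lie on both sides of 0.

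Among the Cyp2a genes the one that rose was Cyp2a5, which encodes the coumarin hydroxylase of mouse liver. Its log2 ratios were 0.21 and 0.72 on the day 5 arrays and 0.82 and 0.66 on those of day 8. After loess the treated pool was the higher one each time, and day 5 replicate 1 stood lowest. As scanned, the treated pool had the higher Cyp2a5 signal on both replicate 1 arrays and the lower one on both replicate 2 arrays. On the latter it read 167853 against 219313 at day 5 and 160772 against 205075 at day 8. Over both days Cyp2a5 rose by 0.60 (SE 0.10, adjusted p = 0.013), a 1.52-fold level. At day 8 it rose by 0.74 (SE 0.14, adjusted p = 0.0346), a 1.67-fold level, and at day 5 its mean of 0.46 (SE 0.14, adjusted p = 0.0899) did not pass. The day 8 call was lost under 7 of 11 other settings, among them leaving out either day 8 array (adjusted p = 0.161 in both cases). The both-days call was lost with the scanner's processed signals (0.63, adjusted p = 0.0739), with the authors' deposited ratios (0.63, adjusted p = 0.0744) and with median centring in place of loess (0.63, adjusted p = 0.453).

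Cyp2a4, a testosterone hydroxylase, read 0.04 and 0.30 at day 5 and 0.69 and 0.20 at day 8 on its brightest probe. All were above 0, but the 2 arrays of day 8 lay further apart than the 2 days did. Its both-days mean of 0.31 (SE 0.10, 95% interval 0.043 to 0.571) did not pass (adjusted p = 0.0814), except with day 8 replicate 2 left out (0.43, adjusted p = 0.0438). The other 2 probes for Cyp2a4 averaged 0.07 (SE 0.12) and 0.23 (SE 0.11) over both days, and neither passed. On each of these 2 probes day 5 replicate 1 was below 0 (-0.34 and -0.20). Set against the Cyp2a4 probes array by array, Cyp2a5 had the higher log2 ratio on 4 of 4 arrays for each of the 3 probes, by 0.40 ± 0.08 against their mean (SD, n = 4 arrays). The exact two-sided sign-flip test gave p = 0.125, the smallest 4 arrays allow, so it could not decide whether the genes differ. The 4 arrays also share control pools. The genes are near-identical copies, so a probe named for one may also have bound RNA of the other. That was not tested, since probe sequences were not used here.

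Cyp2a12, which hydroxylates steroids and bile acids in the mouse, had log2 ratios of -0.08 and 0.34 at day 5, with 0.17 and 0.18 at day 8. Its mean of 0.15 (SE 0.08, 95% interval -0.062 to 0.362) did not pass (adjusted p = 0.234). The replicates of day 5 fell on opposite sides of 0, those of day 8 on the same side. The 3 Cyp2a genes were all brighter than background by a wide margin, at 66.6 times the local background or more in every reading.

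No Cyp2d gene passed at either day or over both by limma, and the smallest unadjusted p over both days was 0.196. Cyp2d9, known as a male-predominant testosterone hydroxylase of mouse liver, read -0.10 and -0.04 at day 5 and 0.02 and -0.31 at day 8 on the log2 ratio scale. Its both-days mean was -0.11 (SE 0.07, adjusted p = 0.325), with a 95% interval of -0.292 to 0.079. A second probe averaged -0.10 (SE 0.07). Cyp2d22, often named as the mouse gene nearest to human CYP2D6, had -0.11 and 0.05 at day 5 and 0.02 and -0.00 at day 8. Its both-days interval of -0.148 to 0.128 was among the narrowest of the 10 genes, and its mean was -0.01 (SE 0.05, adjusted p = 0.911).

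The 2 probes for Cyp2d10 did not give the same picture. The brighter one read 0.02 and -0.14 at day 5 and 0.10 and -0.30 at day 8, with a both-days mean of -0.08 (SE 0.08, adjusted p = 0.523). The other read -0.44 and -0.22 at day 5 and -0.22 and -0.18 at day 8, below 0 on all 4 arrays, and its mean of -0.26 (SE 0.06) passed in the fit over all probes (adjusted p = 0.0276). The gene was represented by the brighter probe and is not counted as changed. Cyp2d26 had the widest spread of the 10 genes, with 0.37 and 0.04 at day 5 and 0.44 and -0.31 at day 8. Its both-days mean was 0.13 (SE 0.14, adjusted p = 0.532). Replicate 1 lay 0.54 above replicate 2 averaged over the days, a gap larger than that of 95.9% of all genes.

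**Figure D2:**
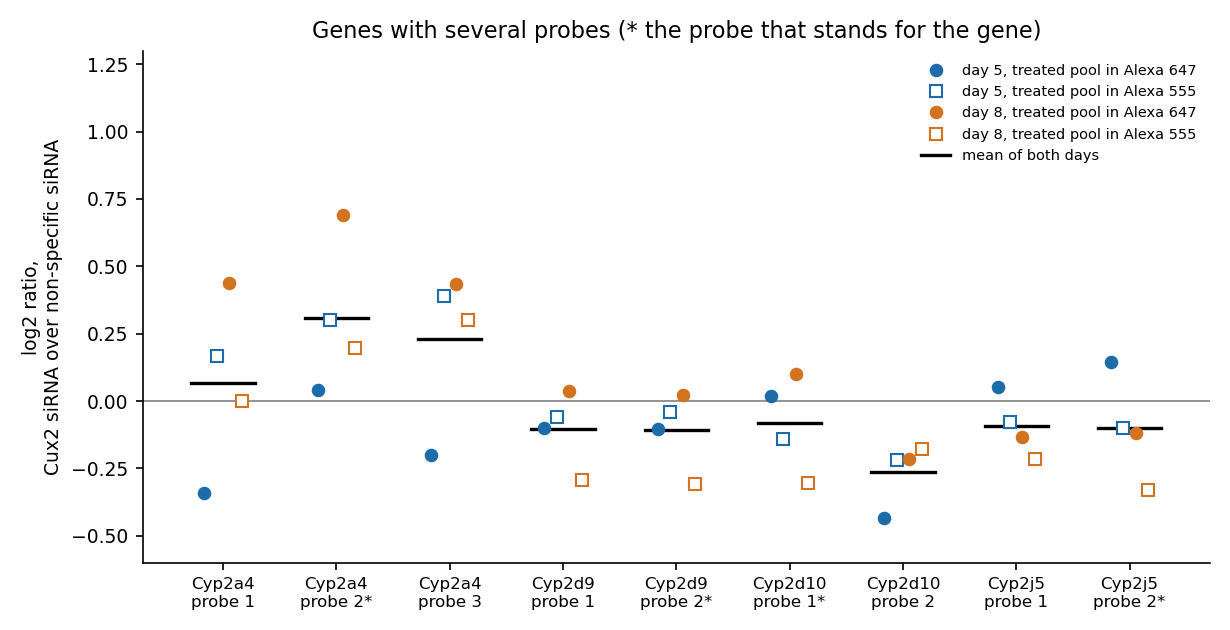
Log2 ratios (Cux2 siRNA over non-specific siRNA) of each probe for the 4 listed genes with several probes. Points are single arrays and black bars the means of both days. The 2 probes for Cyp2d9 and the 2 for Cyp2j5 lie at the same heights, whereas the second probe for Cyp2d10 lies below 0 on all 4 arrays and the first on both sides of it.

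Cyp2e1, the pericentral enzyme that oxidises ethanol and acetaminophen, was after loess higher in the treated pool on all 4 arrays, without passing the test. As scanned, its signal was higher in the treated pool on both replicate 1 arrays and lower on both replicate 2 arrays, as for every listed gene but Cyp2u1. Its log2 ratios were 0.42 and 0.10 at day 5 and 0.74 and 0.20 at day 8. In each day the array with the treated pool in Alexa 647 was the higher, by 0.43 on average, a gap larger than that of 93.4% of all genes. The both-days mean was 0.37 (SE 0.11, adjusted p = 0.0669), with a 95% interval of 0.075 to 0.658. With replicate number, which is also the dye orientation, as a term in the fit, the gene passed (adjusted p = 0.00457). The gene passed with the scanner's processed signals (0.39, adjusted p = 0.0312), with the authors' deposited ratios (0.39, adjusted p = 0.0311) and without day 8 replicate 2 (0.50, adjusted p = 0.0385). Other genes of the pericentral zone, where Cyp2e1 is made, did not share 1 direction. Of 17 tested, 6 rose and 5 fell over both days, against 14.8% and 16.3% of all genes. Gstm3 (0.88) and Aldh3a2 (0.44), a glutathione transferase and a fatty aldehyde dehydrogenase, rose with Cyp1a2 (0.70), a P450 that oxidises caffeine. The carboxylate transporter Slc13a3 (-1.05), the Wnt target Tbx3 (-0.60) and Lgr5 (-0.60) fell. The calls of Gstm3, Slc13a3, Tbx3 and Lgr5 were each lost under 1 of 13 other settings (adjusted p = 0.0699 to 0.255). With 1 array left out 2 to 5 of the 17 rose and 4 to 6 fell, and the calls of Cyp1a2 (without day 5 replicate 2, adjusted p = 0.0686) and Aldh3a2 (without any array but day 8 replicate 1, adjusted p = 0.0526 to 0.0852) were lost.

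Cyp2j5, which turns arachidonic acid into epoxides, read 0.15 and -0.10 at day 5, and -0.12 and -0.33 at day 8. The arrays of day 5 lay on both sides of 0 and those of day 8 below it. Its both-days mean of -0.10 (SE 0.07, adjusted p = 0.338) and its day 8 mean of -0.23 (SE 0.10, adjusted p = 0.202) did not pass. A second probe averaged -0.09 (SE 0.05).

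Cyp2u1, a hydroxylase of long-chain fatty acids whose loss causes a hereditary spastic paraplegia in humans, fell at both days. Its log2 ratios were -0.77 and -0.71 at day 5 and -0.74 and -0.75 at day 8. The 4 arrays lay closer together than for any other listed gene, and replicates 1 and 2 differed by 0.02. Cyp2u1 fell by 0.74 at day 5 (SE 0.07, adjusted p = 0.00766), by 0.75 at day 8 (SE 0.07, adjusted p = 0.00917) and by 0.74 over both days (SE 0.05, adjusted p = 0.00174), which left 59.7% of the control level. After background correction and loess its log2 intensity was 7.46, 7.54, 7.50 and 7.63 in the treated pools, against 8.23, 8.25, 8.24 and 8.38 in the control pools of the same arrays. Every treated value was below every control value.

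The size of that fall depends on how background is handled, because the probe is dim: its signal was 1.32 to 1.99 times the local background, though well above background by the scanner's test in 8 of 8 readings. Without background subtraction the both-days ratio was -0.34 (adjusted p = 0.00768), and with normexp at an offset of 0 it was -0.95. The both-days call was lost with median centring in place of loess (-0.75, adjusted p = 0.0909). The call of each single day was also lost when either array of that day was left out, with adjusted p from 0.0544 to 0.081 and ratios from -0.77 to -0.71. Cyp2u1 is known from brain and thymus as well as liver, and markers of blood-borne and resident immune cells were lower in the same pools. Of 11 macrophage markers 8 fell over both days (4 to 9 with 1 array left out). Their summed intensity was 48259 to 75986 in the treated pools, against 91305 to 100919 in the control pools, with all 11 well above background in all 8 readings. Of 8 neutrophil markers 5 fell, with sums of 2658 to 4319 in the treated pools and 13074 to 17471 in the control pools. Of 11 lymphocyte markers 4 fell and 1 rose (0 with any 1 array left out), with sums of 2330 to 2809 in the treated pools and 3490 to 4389 in the control pools. Among all genes 14.8% rose and 16.3% fell over both days. The part of immune cells in the fall of Cyp2u1 was not tested.

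**Figure D3:**
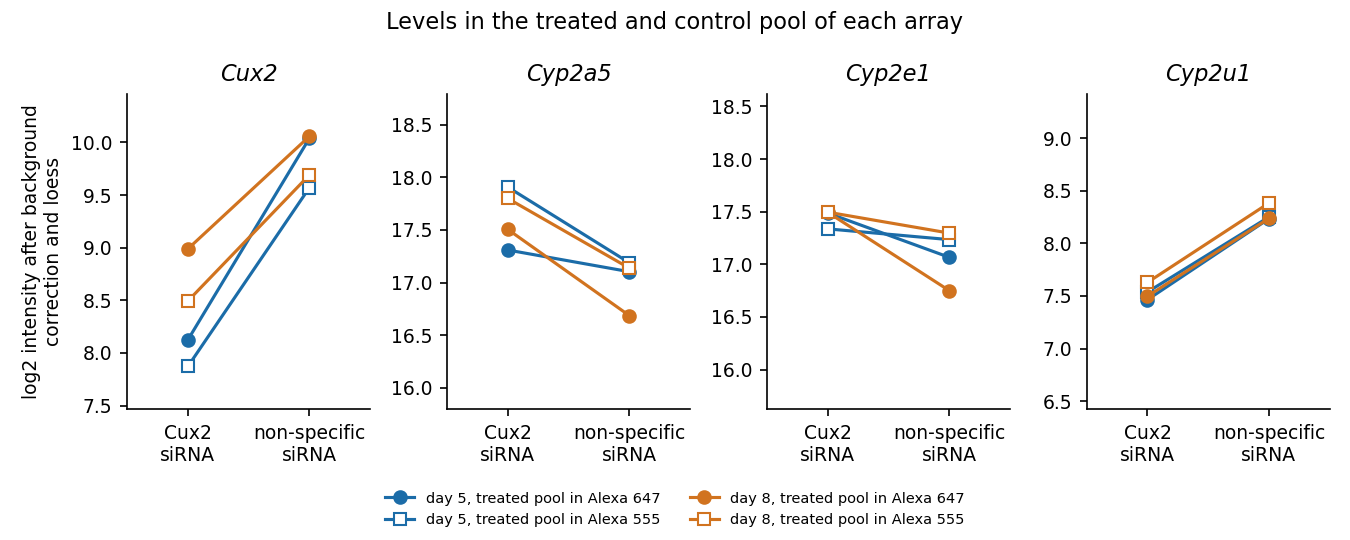
Log2 intensity after background correction and loess in the Cux2 siRNA pool (left) and the non-specific siRNA pool (right) of each array, for Cux2 and 3 listed genes; lines join the pools of 1 array, and each panel spans the same range. All lines of Cyp2u1 run in parallel from about 7.5 in the treated pools, below the control pools, while those of Cyp2a5 and Cyp2e1 slope the other way by unequal amounts.

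The order of the genes along the chromosomes, taken from RefSeq, puts some genes of opposite change side by side. Whether position bears on the calls was not tested. Cyp2a4, Cyp2a5 and Cyp2a12 belong to a run of 13 Cyp2 genes on chromosome 7. Of these 10 were tested, and 2 rose and 4 fell over both days, against 14.8% and 16.3% of all genes. Cyp2g1, known from the olfactory mucosa, lies directly before Cyp2a5 with no other protein-coding gene between them, and it fell by 1.00 (SE 0.07, adjusted p = 0.00194) where Cyp2a5 rose by 0.60. Cyp2b9 (-0.63) and Cyp2b13 (-0.29), female-predominant genes at the end of the run nearer to Cyp2a4, fell. Their neighbour Cyp2b10, the classical target of the receptor CAR, rose by 0.28 (SE 0.05, adjusted p = 0.016), a call lost without any 1 of the 4 arrays (adjusted p = 0.0559 to 0.0868). On chromosome 15 none of the 6 Cyp2d genes tested passed. Cyp2j5 lies beside Cyp2j9 on chromosome 4, which rose by 0.51 (SE 0.07, adjusted p = 0.00916), and Cyp2j6, the next gene, fell by 0.28 (SE 0.07, adjusted p = 0.0382). The calls of Cyp2g1, Cyp2b9 and Cyp2j9 were each lost under 1 of 13 other settings (adjusted p = 0.0774, 0.539 and 0.212). The call of Cyp2j6 was lost without any 1 of the 4 arrays (adjusted p = 0.0628 to 0.148), and that of Cyp2b13 without any but day 8 replicate 1 (adjusted p = 0.104 to 0.115).

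**Figure D4:**
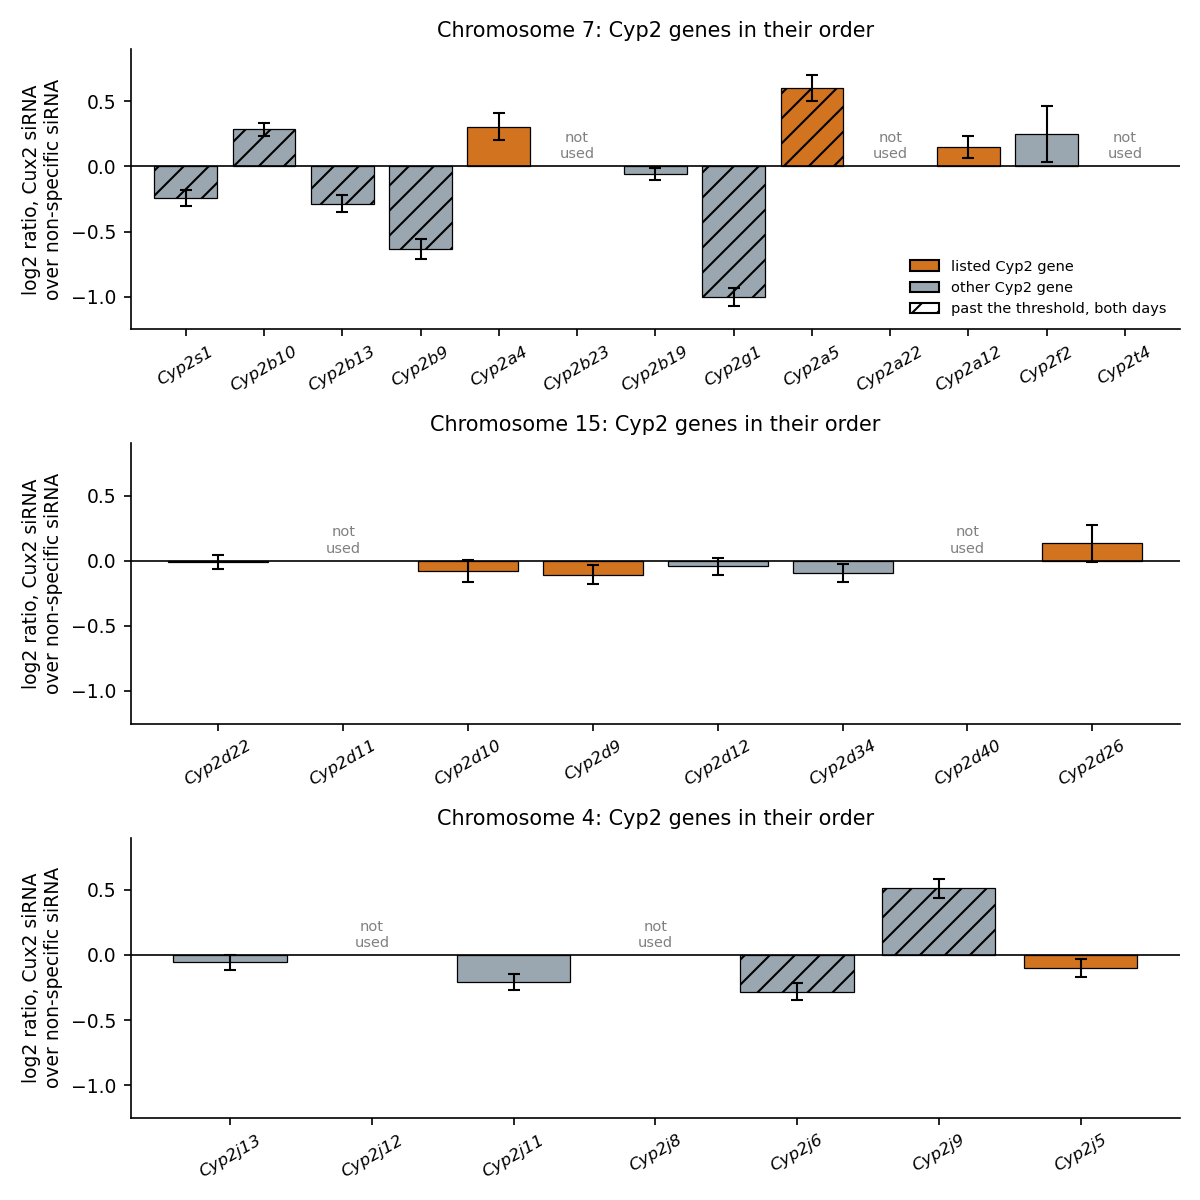
Mean log2 ratio of both days (Cux2 siRNA over non-specific siRNA) with its SE for the Cyp2 genes of 3 chromosomes in their order; spacing is not to scale. Orange bars are listed genes, grey bars other Cyp2 genes and hatched bars genes past the threshold. On chromosome 7 the deepest bar (Cyp2g1) and the highest (Cyp2a5) are neighbours, and on chromosome 15 no bar is hatched.

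Cyp2 genes outside the 10 fell into 2 groups. Over both days 14.8% of all genes rose and 16.3% fell. Of 10 tested genes of the Cyp2a, Cyp2d and Cyp2j subfamilies and of subfamilies with a single gene, 1 rose and 3 fell. Their median was -0.08 beside 0.00 for all genes. Besides the genes named above, the one that fell was Cyp2s1 (-0.24, SE 0.06, adjusted p = 0.0458), an enzyme of epithelia. Its ratios were -0.39 and -0.64 at day 5 and -0.03 and 0.08 at day 8, and its call was lost without any 1 of the 4 arrays (adjusted p = 0.0592 to 0.186). Of 14 Cyp2b and Cyp2c genes 4 rose and 2 fell, with a median of -0.05. The largest rises were in Cyp2c23 (1.63), an arachidonic acid epoxygenase, Cyp2c55 (1.57) and Cyp2c54 (0.89). Each of these 3 rises exceeded that of Cyp2a5. The calls of Cyp2c23 and Cyp2c54 were each lost under 1 of 13 other settings (adjusted p = 0.0816 and 0.114), that of Cyp2c55 under none.

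P450 enzymes depend on shared supplies of electrons and heme. Over both days 14.8% of all genes rose and 16.3% fell. Of 18 electron donors and enzymes of heme supply 6 rose and 1 fell, with a median of 0.05. Alas1, which starts heme synthesis, rose by 0.81 (SE 0.08, adjusted p = 0.00384), Por by 0.65 (SE 0.06, adjusted p = 0.00345) and cytochrome b5 (Cyb5a) by 0.61 (SE 0.09, adjusted p = 0.00937). The heme oxygenase Hmox2 fell by 0.58. The calls of Alas1, Por, Cyb5a and Hmox2 were each lost under 1 of 13 other settings (adjusted p = 0.182, 0.454, 0.594 and 0.23). Of 24 transcription factors known to act on P450 genes 9 rose and 5 fell, with a median of 0.28. Nr1i3, which encodes CAR, rose by 0.76 (SE 0.11, adjusted p = 0.00949), and the liver-enriched factors Foxa1 (0.47) and Onecut1 (0.43) rose with it. The clock output factor Dbp fell by 1.40 (SE 0.06, adjusted p = 0.00102), Stat5b, the growth hormone signal transducer, by 0.53 and Cebpa, a hepatocyte differentiation factor, by 0.31. The calls of Nr1i3, Onecut1 and Dbp were each lost under 1 of 13 other settings (adjusted p = 0.111, 0.471 and 0.0807). With 1 array left out 2 to 9 of the 24 factors rose and 1 to 4 fell. Without either day 5 array the calls of Foxa1, Stat5b and Cebpa were lost (adjusted p = 0.0562 to 0.103), and that of Cebpa also without day 8 replicate 1 (adjusted p = 0.0828).

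Sex-biased genes give a frame for Cyp2a4 and Cyp2d9, neither of which passed. Over both days 14.8% of all genes rose and 16.3% fell. Of 25 other genes known as female-biased in mouse liver 1 rose and 11 fell, with a median of -0.38. Among them the lipoprotein lipase Lpl (-1.23), the lipoprotein receptor Vldlr (-0.96) and the nuclear cofactor Trim24 (-0.83) fell and the neurotrophin receptor Ntrk2 rose (1.73). Of 24 known as male-biased 5 rose and 1 fell, with a median of 0.11. Selenbp2 (1.14), the fatty acid hydroxylase Cyp4a12b (0.78) and Cspg5 (0.77) rose, and the steroid dehydrogenase Hsd3b2 fell by 0.51. The calls of Trim24, Cyp4a12b, Cspg5 and Hsd3b2 were each lost under 1 of 13 other settings (adjusted p = 0.0689 to 0.47). With 1 array left out 7 to 12 of the female-biased genes and 1 to 3 of the male-biased genes fell. The call of Lpl was lost without either day 5 array (adjusted p = 0.0703 and 0.0845), that of Vldlr without day 8 replicate 1 (adjusted p = 0.0529), and that of Selenbp2 without day 5 replicate 2 or day 8 replicate 1 (adjusted p = 0.0685 and 0.0943). The both-days ratio of Cyp2a4 was 0.31 and that of Cyp2d9 was -0.11, each on the other side of 0 from the median of its list. No list was tested as a list.

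Of 2 genes outside the lists, Ifit1, an interferon-induced gene, had a both-days log2 ratio of -4.75 (SE 0.09, adjusted p = 0.000317) and Saa1, an acute phase gene, of -4.39 (SE 0.39, adjusted p = 0.00322). They were picked with their values known, and the call of Saa1 was lost with median centring (adjusted p = 0.0796). Whether they bear on the P450 genes was not tested.

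The genes whose 4 log2 ratios lay nearest to those of Cyp2a5, among 14091 with a symbol, included Lrp2bp (root mean square difference 0.11) and Amer2 (0.13). Lrp2bp read 0.18 and 0.79 at day 5 and 0.64 and 0.56 at day 8. Like Cyp2a5 it stood lowest on day 5 replicate 1. Nearest to Cyp2u1 were the mitochondrial glycerol phosphate dehydrogenase Gpd2 (0.03), the ribonuclease Rnase6 (0.03) and Lrrc4 (0.03). These are descriptions over 4 arrays that share control pools.

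**Figure D5:**
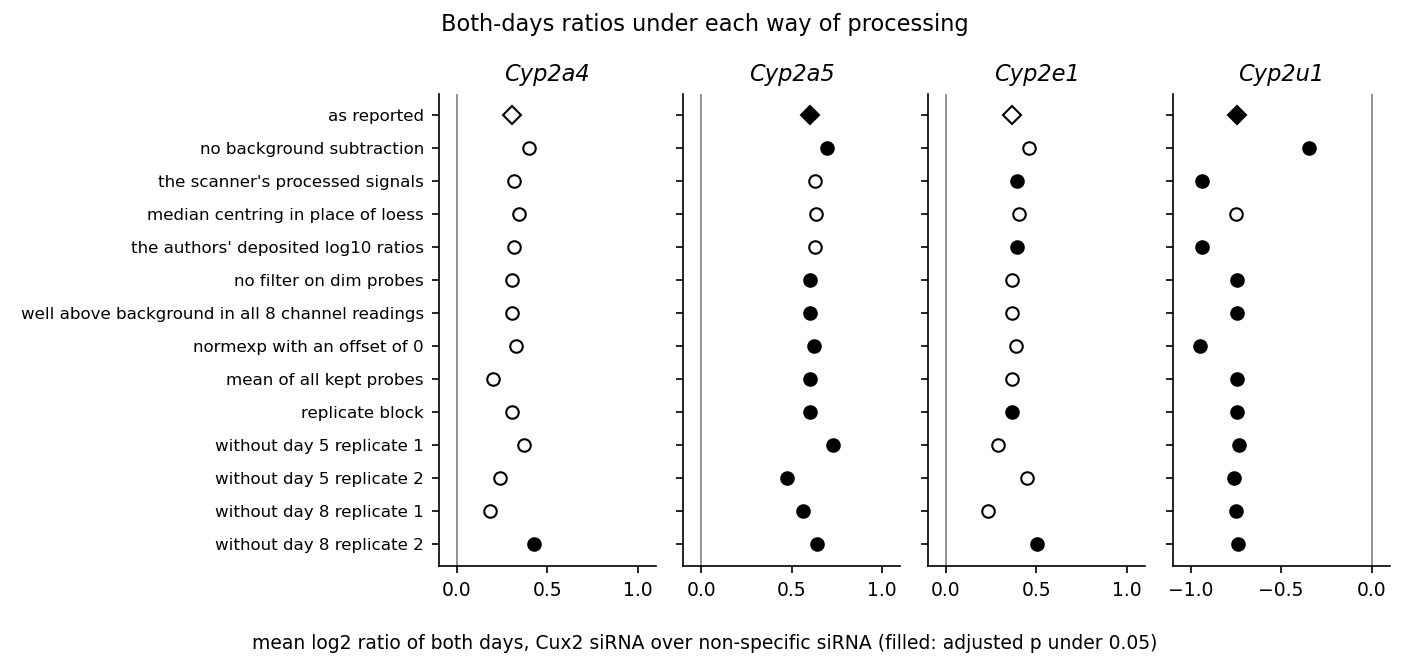
Mean log2 ratio of both days (Cux2 siRNA over non-specific siRNA) of 4 listed genes as reported (diamonds) and under 13 other settings (circles), filled where the adjusted p was under 0.05. Cyp2a5 and Cyp2u1 are filled in most settings and open with median centring, Cyp2a4 is filled once, and the Cyp2u1 ratio moves between -0.95 and -0.34 with the handling of background.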

How the data were processed

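Per the file headers, spots were read with Agilent Feature Extraction 10.7.1.1. From these deposited tables the median intensity of spot and local background was used, as scanned. The design had named mean signals, and the median signals the tables hold were taken instead. The processed intensity columns, an alternative here, had background and dye effects removed during scanning (per the file headers). The authors' deposited log10 ratio table equalled the scanner's log10 ratio within 1e-05 for 45018 features after a change of sign where the treated pool carried Alexa 555. The scanner's deposited p-value per spot entered no test. The array design's build differs from that of the gene table, so no coordinates are given for probes or genes, and those of the promoter stretches are RefSeq's.

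In limma 3.58.1 (R 4.3.3) normexp with an offset of 50 removed background, and ratios were normalized within arrays by loess, control spots at weight 0. Values are log2 ratios computed from the deposited intensities and turned to treated over control by the dyes in the labels. Of 41174 probes 23374 (56.8%) were named by RefSeq accession. A probe was kept if well above background in 2 of 8 readings (31788), and the brightest kept probe stood for its gene. Spots with an outlier mark (181 to 298 per array, 0 on listed genes) were left out. One lmFit and eBayes fit over 4 arrays gave day 5, day 8, their mean and their difference, with 2 residual degrees of freedom and 2.76 from the prior. Pools stand for animals, so the p-values reflect differences among pools and dyes. The fit treats the 4 arrays as independent although control pools recur on both days, so both-days SEs and p-values may be too small. Precision is limited by the number of arrays.

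The members and lists were chosen with earlier results of these data known. The genes named are Cux2, every listed gene with each probe, and of each other list the 3 largest rises and falls over both days among members past the threshold. For the largest rise and fall among the listed genes, the 3 nearest patterns are named, except 1 gene that is not reported here. Exceptions chosen after their values were seen are Alb, Cyp2b10, Ifit1 and Saa1. Some genes are in more than 1 list. The fit was tested on simulated data. A planned comparison of proteins was not run, since no protein table was used here.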

Additional observations from a re-analysis of the deposited data

How the results depend on the processing

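No listed gene that passed changed direction under any of the 14 settings run, the one as reported included, and none passed for day 8 minus day 5 in any of them. As reported, 4212 genes passed at day 5, 3589 at day 8 and 7796 over both days (3710 rose, 4086 fell), and of the listed genes 1, 2 and 2. Median centring in place of loess left 5, 3 and 269 genes (over both days 87 rose and 182 fell, a share of rises of 32.3% against 47.6%) and 0, 0 and 0 listed genes by limma (1 each time at an unadjusted p under 0.05). The scanner's processed signals left 2012 and 1477 genes per day and 1 listed gene at day 8, the authors' deposited ratios 2001, 1469 and 1, and normexp with an offset of 0, chosen after seeing the data, 2570, 2065 and 1. Without background subtraction 2106 genes and 1 listed gene passed at day 8. The causes were not tested. Leaving out single arrays, so that the lone array of a day is assumed to vary like the others, gave 244 to 909 genes at day 5, 137 to 737 at day 8 and 3895 to 5452 over both days. Of the listed genes it left 0 to 0 at day 5, 0 to 0 at day 8 and 2 to 4 over both days, with 1 to 5 at an unadjusted p under 0.05 in each case. The largest loss at day 8 came without day 8 replicate 2 and at day 5 without day 5 replicate 2. The replicate block, in which the replicate number (also the dye orientation) is a term, passed 8241 genes at day 5, 7451 at day 8 and 11255 over both days, and 3, 4 and 3 listed genes. With it Cyp2a5 (adjusted p = 0.0479) and Cyp2e1 (0.0451) passed at day 5, Cyp2e1 (0.0105) and Cyp2j5 (0.0465) at day 8, and Cyp2e1 (0.00457) over both days. Deviations of same-numbered arrays correlated at 0.50, which with 2 pairs does not settle whether the numbers pair the samples. Depth of signal limits Cyp2u1 most, whose probe read 1.32 to 1.99 times background.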

Other observations

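Markers of other cell types are given beside the 14.8% of all genes that rose and the 16.3% that fell over both days. Of 10 stellate cell markers 3 rose and 6 fell, of 10 endothelial markers 2 rose and 3 fell (0 to 1 and 1 to 2 with 1 array left out), and 1 of 7 bile duct markers and 1 of 6 red cell markers rose. Of 10 hepatocyte markers 2 fell. Transcripts of exocrine pancreas, measured in these liver pools, had a median log2 ratio of -3.12 at day 5 and -1.36 at day 8, and 4 of 11 fell over both days (0 to 11 with 1 array left out). Day 8 replicate 1 stood apart, with a list median of 0.64 and a summed intensity of 47783 in the treated pool, against 30758 in the control pool. The other 3 arrays had list medians of -2.94, -3.75 and -3.61. The 3 kidney proximal tubule markers lay between -0.01 and 0.05 over both days.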
